A study of Mus musculus with 4 samples.

Results

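RNA levels of 9 genes that govern the mitochondrial route of cell death were examined in hearts lacking PIMT (*Tgs1*), a coactivator-binding protein with RNA methyltransferase activity. The genes were taken by symbol from the 23337 gene symbols in the files, and all 9 were found. They were the anti-apoptotic genes *Bcl2*, *Bcl2l1* (BCL-XL) and *Mcl1*, the pore-forming effectors *Bax* and *Bak1*, the BH3-only genes *Bid*, *Bcl2l11* (BIM) and *Bbc3* (PUMA), and the initiator caspase *Casp9*. The controls were PIMT fl/fl mice, which carry loxP sites around exons of the PIMT gene, and the csPIMT-/- mice had the same floxed alleles with Cre recombinase under the α-myosin heavy chain promoter, so that the gene was lost in cardiomyocytes and not in the other cells of the heart. No group carried Cre without floxed alleles. All mice were of strain C57BL6/J and untreated, and hearts were taken at 2 or 6 months of age. RNA of 5 hearts of male and female mice was pooled for each genotype and age, giving 4 libraries, 1 per group, so no group has a replicate and the spread between mice cannot be seen.

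In a healthy cell the anti-apoptotic proteins hold BAX and BAK1 in check at the outer mitochondrial membrane. BH3-only proteins report stress by binding the anti-apoptotic proteins or by activating BAX and BAK1, which then open pores, release cytochrome c and allow APAF1 to activate caspase-9. Cardiomyocytes divide very little after birth, and BCL2, BCL-XL and MCL1 are known to guard their survival and their mitochondria, while BAX, BAK1 and PUMA take part in their loss under strain.

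The DNA upstream of the gene start is given for *Bcl2l1*, the gene with the largest difference between genotypes, for *Bcl2l11*, the gene that passed the test over both ages, and for *Bcl2*, whose ratio at 2 months was the lowest. Each sequence is the 250 bases before the outermost RefSeq start (GRCm38.p6), read 5′ to 3′ on the strand of the gene, and capitals mark GC boxes (GGGCGG) and CCAAT boxes (CCAAT) on either strand. *Bcl2l1* is shown from chr2:152831729-152831978 on the minus strand, *Bcl2l11* from chr2:128125788-128126037 on the plus strand and *Bcl2* from chr1:106714291-106714540 on the minus strand.
Bcl2l1: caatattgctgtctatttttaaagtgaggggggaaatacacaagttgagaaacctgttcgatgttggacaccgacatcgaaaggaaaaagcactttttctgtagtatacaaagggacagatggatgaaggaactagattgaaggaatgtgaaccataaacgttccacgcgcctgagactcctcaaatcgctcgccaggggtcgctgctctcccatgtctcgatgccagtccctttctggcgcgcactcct
Bcl2l11: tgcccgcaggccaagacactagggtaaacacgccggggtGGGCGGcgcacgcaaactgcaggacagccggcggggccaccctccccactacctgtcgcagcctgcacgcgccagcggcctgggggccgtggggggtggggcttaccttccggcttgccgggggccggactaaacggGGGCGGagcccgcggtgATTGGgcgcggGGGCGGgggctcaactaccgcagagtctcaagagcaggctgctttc
Bcl2: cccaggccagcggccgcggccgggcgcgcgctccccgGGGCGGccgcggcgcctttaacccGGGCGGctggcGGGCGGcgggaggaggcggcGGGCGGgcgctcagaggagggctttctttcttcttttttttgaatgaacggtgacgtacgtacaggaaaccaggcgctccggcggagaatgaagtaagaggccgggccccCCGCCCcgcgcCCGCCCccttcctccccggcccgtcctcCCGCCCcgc
The *Bcl2l1* window held neither motif and had a GC content of 47.6%, below the median of 52.4% over 32851 such windows. The *Bcl2l11* window had a GC content of 72.0%, with 3 GC boxes and 1 CCAAT box, and the *Bcl2* window a GC content of 74.8% with 7 GC boxes. A GC box was present in the windows of 7 of the 9 genes and in 32.7% of all windows, and a CCAAT box in that of 1 gene and in 33.8% of windows. The TATA box (TATAAA) and the STAT site (TTCNNNGAA) were found in the windows of 0 of the 9 genes, against 12.4% and 7.02% of all windows, and the E-box (CACGTG) in that of 1, *Bax*, against 6.02%. All motifs were searched on both strands. *Bcl2l1* has 3 starts in the table, and gene counts do not tell which was used. In the GENCODE M21 annotation (GRCm38) the genes themselves span chr2:152780668-152831728 (*Bcl2l1*, minus strand), chr2:128126038-128162547 (*Bcl2l11*, plus), chr1:106538178-106714274 (*Bcl2*, minus), chr3:95658788-95663176 (*Mcl1*, plus) and chr7:45461697-45466898 (*Bax*, minus). *Bak1* spans chr17:27019810-27029009 (minus), *Bid* chr6:120891930-120916853 (minus), *Bbc3* chr7:16308393-16318205 (plus) and *Casp9* chr4:141793612-141815976 (plus). The RefSeq windows of *Bbc3* and *Bak1* lie inside these GENCODE spans and not before them, and that of *Bid* reaches into its span. The motif matches describe letters in the window and not use of a site.

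The files hold for each gene a normalized count, which is a read count divided by a size factor of its library. Reads on genes numbered 29823073 to 40705783 per library. *Tgs1* had 670 and 928 reads in the controls and 130 and 156 in the csPIMT-/- libraries, ratios of 0.271 at 2 months and 0.194 at 6 months that became 0.597 and 0.491 with the GC trend described below subtracted. These are counts over the whole gene, of which only some exons were floxed. Cardiomyocyte markers were abundant, with 434772 to 776661 reads on *Myh6*. The 2-month csPIMT-/- pool stood apart in lung and brown fat markers, and the 2-month control in Y-linked genes. Atrial markers summed to 325567 normalized counts in the 2-month csPIMT-/- pool and 40736 in its control. They summed to 114957 in the 6-month control and 348345 in the 6-month csPIMT-/- pool. *Nppa*, which strained ventricles also express, gave 320296 of the last sum. *Sln*, *Myl4* and *Myl7* were highest in the 2-month csPIMT-/- pool and lowest in the 2-month control. *Sln* had 10243 reads in the former and 150 in the latter, against 4544 in the 6-month control and 1619 in the 6-month csPIMT-/- pool. Lung markers, led by *Bpifa1*, summed to 1160 in the 2-month csPIMT-/- pool against 1.73 to 17.7 elsewhere. Y-linked genes summed to 8087 in the 2-month control, 449 in the 2-month csPIMT-/- pool, 1176 in the 6-month control and 616 in the 6-month csPIMT-/- pool, and *Xist* was at 805, 6369, 25639 and 12856 in the same libraries. Leukocyte and macrophage markers summed to 6661, 21087, 17123 and 29379 in the same order. Of the 6, *Ptprc* alone went the other way, with csPIMT-/- over control ratios of 0.522 at 2 months and 0.432 at 6 months. Brown fat markers summed to 1903, 6156, 1561 and 2910, of which *Cidea* gave 1889, 2561, 1015 and 2600. *Ucp1* was at 8.65, 1766, 93.2 and 12.5, and *Adipoq* at 5.19, 1830, 453 and 298. At 6 months both of these were lower in the csPIMT-/- pool than in the control, unlike the sum. The csPIMT-/- over control ratio of the summed cardiomyocyte markers was 0.938 at 2 months and 0.758 at 6 months. That of fibroblast markers was 0.885 and 1.68. Markers within both lists went opposite ways. Of the 6 cardiomyocyte markers, 4 had ratios below 1 and 2 above 1 at each age. *Pln* was lowest at both ages, and *Ryr2* was at 0.596 and 0.524. *Tnni3* was at 1.46 and 1.15, and *Actc1* at 1.19 and 1.33. Of the 5 fibroblast markers, 4 were below 1 at 2 months. At 6 months 4 were above 1, and *Lum* was at 0.562. By the Y-linked genes and *Xist* the pools were not matched in sex, and at 2 months sex make-up changed along with genotype. The part of sex and of these mixtures in the results was not tested. In bulk tissue, fewer cells of a type and less RNA per cell cannot be told apart.

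Ratios compare csPIMT-/- with the control of the same age, with the size factors of those 2 libraries, and lie 0.980 times at 2 months and 0.974 times at 6 months the quotient of the deposited values. Their 95% intervals hold counting error only. In normalized counts, both csPIMT-/- libraries lay above both controls for 6 genes (*Bcl2l1*, *Bax*, *Bak1*, *Bid*, *Bbc3* and *Casp9*) and below both for 3 (*Bcl2*, *Mcl1* and *Bcl2l11*), although subtracting a trend with the GC content of transcripts, described below, moved *Bcl2l1*, *Bax*, *Bak1* and *Bbc3* at 2 months and *Bcl2*, *Bak1* and *Bbc3* at 6 months across a ratio of 1. Of all 14781 genes compared at both ages, 35.2% lay above both controls and 36.4% below. At 2 months 2 of the 9 genes had a ratio below 0.5, against 23.0% of 15152 genes, and 1 a ratio above 2, against 16.4%. At 6 months 1 of 9 was below 0.5, against 25.7% of 15218 genes, and 1 above 2, against 16.0%. The median ratio of the 9 genes was 1.20 at 2 months and 1.40 at 6 months, beside 0.976 and 0.971 over all genes compared at both ages.

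**Figure D1:**
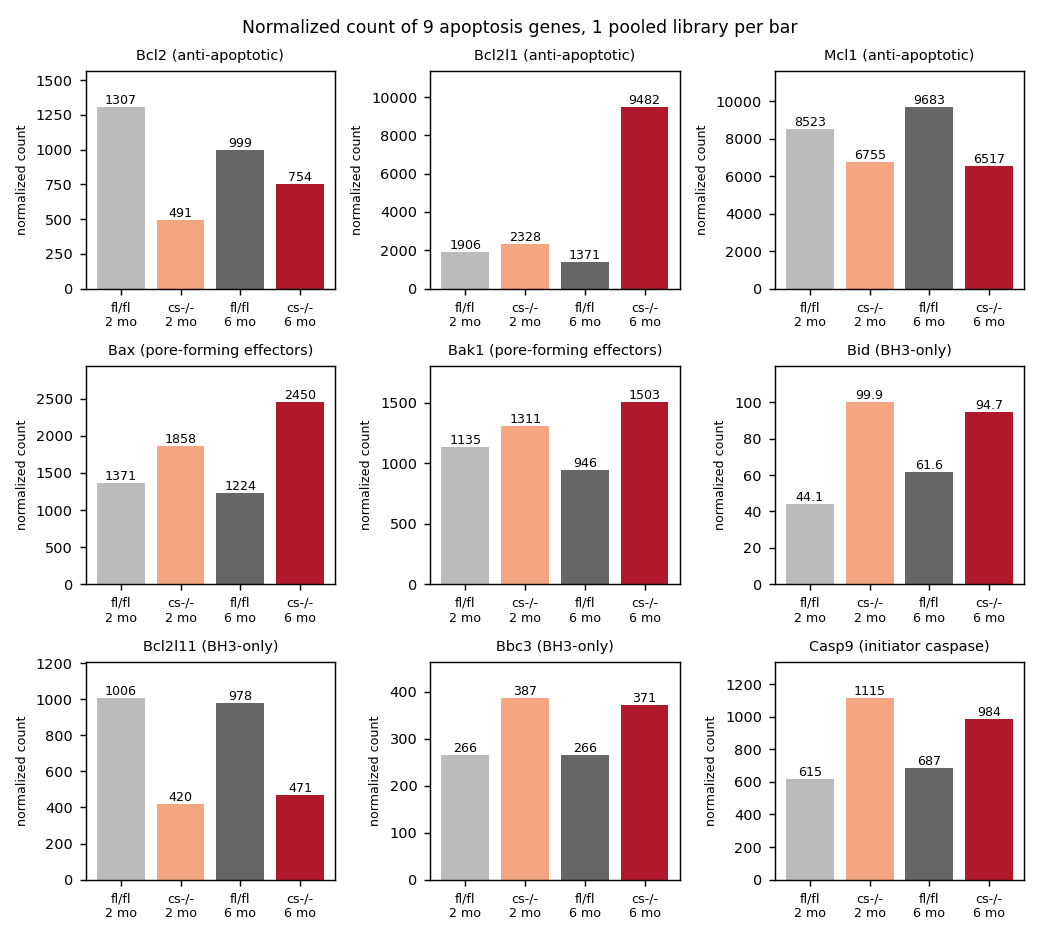
Normalized count (vertical axis, from 0) of each of the 9 genes in the 4 libraries, 1 bar per pooled library of 5 hearts, with fl/fl for PIMT fl/fl, cs-/- for csPIMT-/- and mo for months. *Bcl2l1* stands at 9482 in the 6-month csPIMT-/- library and at 1371 to 2328 in the other 3.

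*Bcl2l1*, whose protein BCL-XL blocks BAX and BAK1, showed the largest difference of the 9. Its normalized count was 1906 in the 2-month control, 2328 in the 2-month csPIMT-/- library, 1371 in the 6-month control and 9482 in the 6-month csPIMT-/- library. The 6-month csPIMT-/- library was thus far above the other 3, which ran from 1371 to 2328. The ratio was 1.20 at 2 months (95% interval 1.13 to 1.27), and 0.793 with the GC trend subtracted. At 6 months it was 6.74 (95% interval 6.38 to 7.11), and 4.44 with the trend subtracted, the former higher than the ratio of 97.9% of genes at that age. Within csPIMT-/- hearts it was 3.96 times as high at 6 as at 2 months (95% interval 3.77 to 4.16), while in controls the quotient of the ages was 0.687 (95% interval 0.644 to 0.734). Against the 2-month control the 6-month csPIMT-/- ratio was 4.88. All 9 genes compared within 200 kb of *Bcl2l1* were looked at as well, a choice made after its values were seen. Their 6-month ratios ran from 0.192 for *Tpx2* to 14.3 for *Mylk2*, the latter on 5 and 62 reads, with *Id1* at 2.33 and the other 6 between 0.596 and 1.66.

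*Bcl2*, the founding anti-apoptotic member, was lower in the csPIMT-/- libraries as counted, at 6 months only before the GC trend was subtracted. Normalized counts were 1307 and 999 in the younger and older controls and 491 and 754 in the csPIMT-/- pools, so both csPIMT-/- pools lay below both controls. The ratio was 0.368 at 2 months (95% interval 0.329 to 0.411) and 0.735 at 6 months (95% interval 0.669 to 0.808), and with the GC trend subtracted 0.533 and 1.12. *Mcl1*, a short-lived anti-apoptotic protein, had the most reads of the 9 in all libraries but the 6-month csPIMT-/- one, where *Bcl2l1* had more, with normalized counts that went from 8523 in the control to 6755 in the younger csPIMT-/- pool and from 9683 to 6517 in the older one. The ratios were 0.777 (95% interval 0.752 to 0.803) and 0.656 (95% interval 0.636 to 0.676), and they were on the same side of 1 in all settings tried.

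*Bax*, which forms the pore of the outer mitochondrial membrane, had a normalized count of 1371 in the 2-month control against 1858 in the csPIMT-/- pool, and of 1224 in the 6-month control against 2450.0. Both csPIMT-/- libraries were above both controls, the older one by more. The ratio was 1.33 at 2 months (95% interval 1.24 to 1.43) and 1.95 at 6 months (95% interval 1.82 to 2.08), the latter just inside the 2-fold limit and 2.00 on the deposited scale. *Bak1*, the second pore-forming gene, had 1135 normalized counts in the younger control against 1311, and 946 in the older control against 1503. This gave 1.13-fold at 2 months (95% interval 1.04 to 1.23) and 1.55-fold at 6 months (95% interval 1.43 to 1.68). With the GC trend subtracted the 2-month ratios were 0.791 for *Bax* and 0.724 for *Bak1*, on the other side of 1, and the 6-month ratios 1.14 and 0.982. Exons of *Bak1* share 25.5% of their bases with *Ggnbp1* on the opposite strand, so its reads are uncertain where strand was not used in counting. Exons of *Bax* share 12.2% of their bases with *Gm45808*, a gene of the same strand that is not among the symbols of the files.

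*Bcl2l11* encodes BIM, a BH3-only protein that binds all 3 anti-apoptotic proteins. Its normalized count was 1006 in the 2-month control, 978 in the 6-month control, 420.4 in the younger csPIMT-/- pool and 471 in the older one. The controls differed little from each other and both csPIMT-/- libraries were well below them. The ratio was 0.410 at 2 months (95% interval 0.362 to 0.462) and 0.469 at 6 months (95% interval 0.420 to 0.524), and 0.502 and 0.574 with the GC trend subtracted. *Bid*, which links death receptors to mitochondria once caspase-8 has cut it, had the fewest reads, 51 and 70 in the controls against 81 and 91 in the csPIMT-/- pools of the same ages. The 2-month ratio of 2.22 (95% interval 1.54 to 3.21) and the 6-month ratio of 1.50 (95% interval 1.08 to 2.08) were therefore the least precise. Exons of *Bid* share 17.7% of their bases with *Bcl2l13* on the opposite strand. *Bbc3*, the p53 target PUMA, had 266 normalized counts in each control, and 387 in the younger and 371 in the older csPIMT-/- pool. It was 1.43-fold (95% interval 1.22 to 1.68) and 1.36-fold (95% interval 1.17 to 1.59) the control, but 0.839 and 0.795 with the GC trend subtracted.

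*Casp9*, the caspase that the apoptosome activates, had 615 and 687 normalized counts in the younger and older controls, against 1115 and 984 in the csPIMT-/- pools. Both csPIMT-/- libraries were above both controls. The ratio was 1.78 at 2 months (95% interval 1.61 to 1.96) and 1.40 at 6 months (95% interval 1.27 to 1.54), and 1.34 and 1.02 with the GC trend subtracted.

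**Figure D2:**
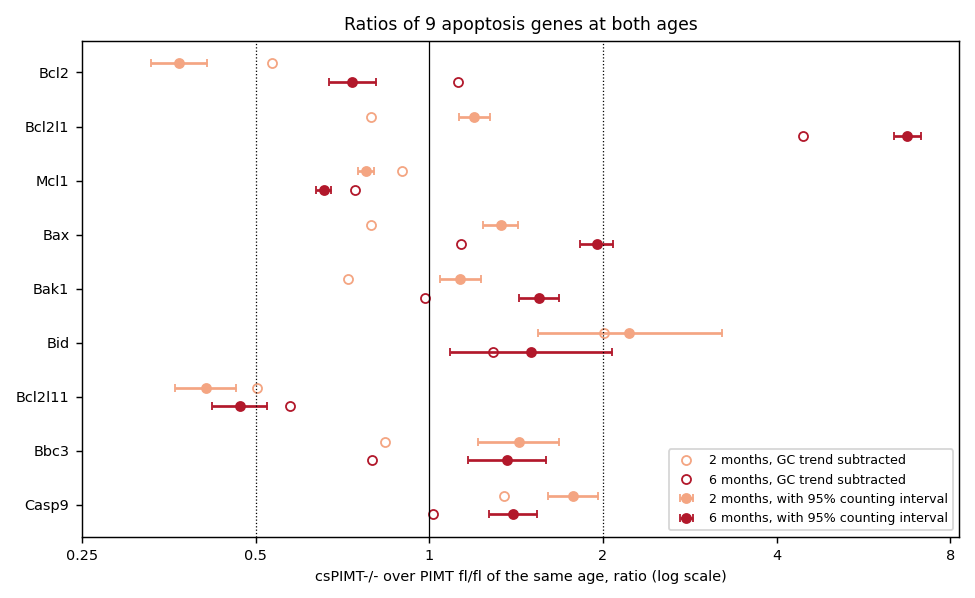
Ratio of csPIMT-/- over PIMT fl/fl of the same age (horizontal axis, log scale) for each gene at 2 months (orange) and 6 months (red), with filled points and bars for the ratio and its 95% counting interval and open points for the ratio after the GC trend was subtracted. *Bcl2l1* at 6 months stays highest at 6.74 and 4.44, whereas the open points of *Bcl2l1*, *Bax*, *Bak1* and *Bbc3* at 2 months and of *Bcl2*, *Bak1* and *Bbc3* at 6 months lie across 1 from the filled ones.

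The spread between pools of 1 genotype gives a scale for these ratios, although age differs as well. The controls also differed in Y-linked genes, *Xist* and *Sln*, and the csPIMT-/- pools in lung and brown fat markers and *Sln*. Between the controls of 6 and 2 months 0 of the 9 genes differed by more than 2-fold, against 13.4% of 15132 genes, and the quotients ran from 0.687 for *Bcl2l1* to 1.33 for *Bid*. Between the csPIMT-/- libraries of the 2 ages 1 gene, *Bcl2l1*, was past 2-fold, against 17.9% of 15057 genes, and the other 8 ran from 0.859 for *Casp9* to 1.49 for *Bcl2*. The genotype ratios of *Bcl2l1*, *Mcl1*, *Bax* and *Bak1* at 2 months and of *Bcl2* at 6 months lay within the range seen between the controls. The upper end of that range was set by *Bid*, on 51 and 70 reads (95% interval 0.916 to 1.95). The highest quotient of the other genes was 1.09 for *Mcl1*, below the 2-month ratios of *Bcl2l1*, *Bax* and *Bak1*. The range spans different genes and is not the spread of any single gene.

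Levels of different genes were compared per kilobase of the longest transcript. In both controls the order began with *Mcl1*, *Bax*, *Bcl2l1* and *Bak1*, at 2494, 1246, 742 and 476 normalized counts per kb at 2 months. Below them *Bcl2l11* and *Bcl2*, at 200 and 182, and *Casp9* and *Bbc3*, at 158 and 146, were neighbours whose counting intervals overlapped. *Bid* was last at 18.3. In the 2-month csPIMT-/- library the first 4 places were the same, and *Casp9* at 286 and *Bbc3* at 213 stood above *Bcl2l11* at 83.5 and *Bcl2* at 68.2. In the 6-month csPIMT-/- library *Bcl2l1* came first at 3692 normalized counts per kb, followed by *Bax* at 2227 and *Mcl1* at 1907.

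*Bcl2l1* accordingly made up 21.7% of the summed level per kb of the 3 anti-apoptotic genes in the 2-month control and 15.2% in the 6-month control, against 30.7% and 64.7% with PIMT deleted. *Mcl1* made up 73.0% and 80.8% in the controls and 67.0% and 33.4% in the csPIMT-/- libraries. These shares, and the sums below, are as counted. *Bcl2l1* over *Mcl1* differed between genotypes by a factor of 1.54 at 2 months and 10.3 at 6 months. With the GC trend subtracted these factors were 0.886 and 5.99, the first on the other side of 1. The 3 genes together summed to 3418 and 3506 normalized counts per kb in the controls and to 2951 and 5704 in the csPIMT-/- libraries. *Bax* and *Bak1* together summed to 1722 and 1509 in the controls and 2238 and 2857 in the csPIMT-/- libraries, although their 2-month ratios were 0.791 and 0.724 with the GC trend subtracted. The quotient of these sums was 1.99 in the 2-month control and 2.32 in the 6-month control, and 1.32 and 2.00 in csPIMT-/- hearts. The BH3-only genes summed to nearly the same level in all libraries, 338 to 366, although as counted the genes went opposite ways. *Bcl2l11* was at 200 and 194 per kb in the controls and 83.5 and 93.6 in the csPIMT-/- libraries. *Bbc3* was at 146 in both controls, against 213 and 205, and *Bid* at 18.3 and 25.5, against 41.4 and 39.2. With the GC trend subtracted, *Bcl2l11* and *Bbc3* were both below the control. Their ratios were then 0.502 and 0.574 for *Bcl2l11* and 0.839 and 0.795 for *Bbc3*, beside 2.01 and 1.29 for *Bid*.

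**Figure D3:**
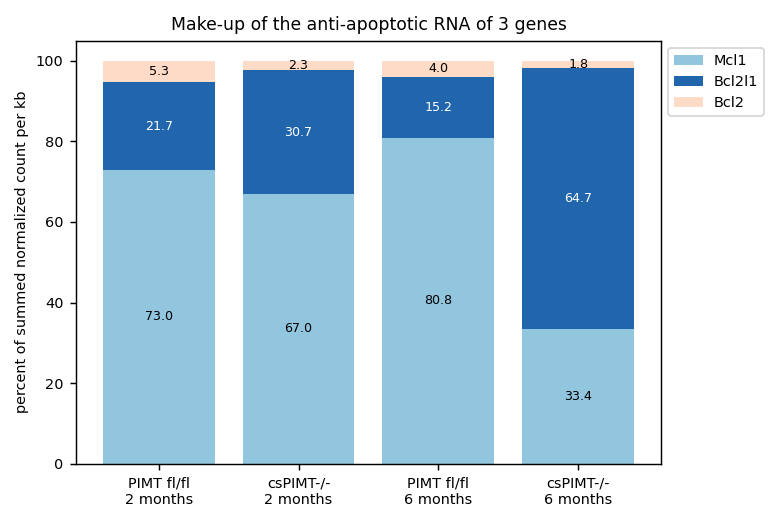
Percent of the summed normalized count per kb of *Mcl1*, *Bcl2l1* and *Bcl2* (vertical axis) in each of the 4 libraries, 1 stacked bar per library. *Bcl2l1* makes up 15.2% to 30.7% of 3 bars and 64.7% of the 6-month csPIMT-/- bar.

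The ratio of *Bcl2* to *Bax*, often read as a balance of survival and death, was 0.146 per kb in the 2-month control and 0.0404 in csPIMT-/- hearts, and 0.125 and 0.0471 at 6 months. It differed between genotypes by a factor of 0.277 at 2 months and 0.377 at 6 months, and by 0.674 and 0.987 with the GC trend subtracted. The ratio of *Bcl2l1* to *Bax* was 0.596 and 0.537 at 2 months and 0.480 and 1.66 at 6 months. Its factor at 6 months was 3.46, and 3.91 with the GC trend subtracted.

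These comparisons moved with base composition. The log2 ratio of csPIMT-/- over control increased as transcripts were richer in G and C (Spearman rho over genes 0.581 for the younger and 0.607 for the older pair). A GC value was found for 90.7% and 90.6% of genes. Genes are not independent, and all share the same libraries. The 3 genes that were lower in csPIMT-/- hearts had a GC content of 46.3% (*Bcl2*), 48.0% (*Bcl2l11*) and 48.7% (*Mcl1*), and the 6 that were higher ran from 51.3% (*Bid*) to 65.2% (*Bbc3*). The trend alone gave a log2 ratio of -0.53 to *Bcl2* and 0.75 to *Bax* at 2 months. As counted, 6 genes had a ratio above 1 at both ages, against 38.2% of all genes, and 3 a ratio below 1, against 40.7%. With the trend subtracted, 2 genes (*Bid* and *Casp9*) were above 1 at both ages, against 35.8% of 13402 genes, and 4 (*Mcl1*, *Bcl2l11*, *Bak1* and *Bbc3*) below, against 34.8%. On that scale 0 of the 9 were below 0.5, against 11.6% of genes at 2 months and 13.2% at 6 months. *Bcl2l1* was at 0.793 at 2 months and 4.44 at 6 months on this scale, where 14.3% of 13787 genes were above 2 at 6 months. Whether the trend is technical was not tested.

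**Figure D4:**
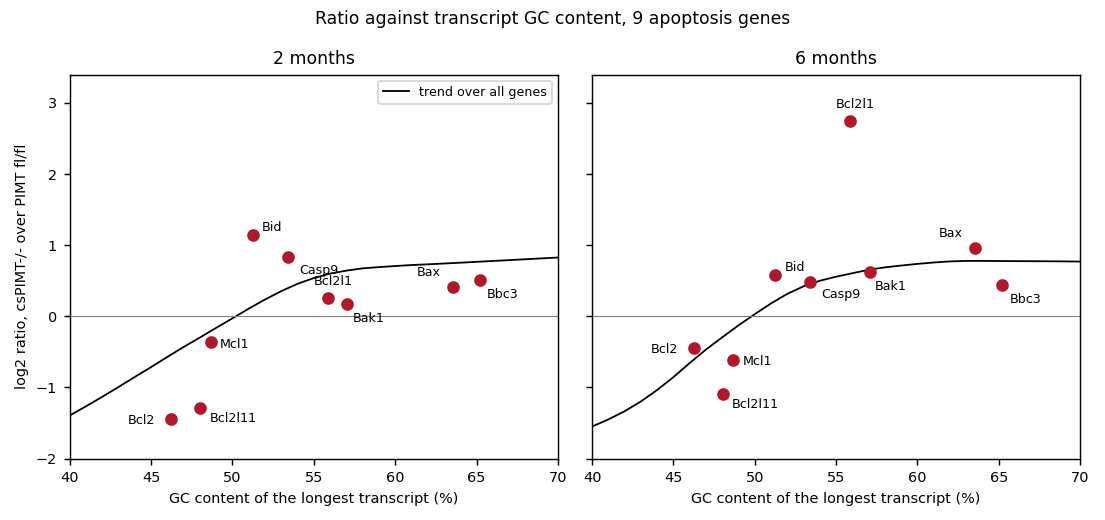
log2 ratio of csPIMT-/- over PIMT fl/fl (vertical axis) against GC content of the longest transcript in percent (horizontal axis) for the 9 genes (points) at 2 months (left) and 6 months (right), with the trend over all genes as a line. *Bcl2l1* at 6 months, at 2.75, stands far above the line, and *Bcl2l11* stands below it at both ages.

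Genotype was tested over both ages together with limma on all 4 libraries with age in the model, which leaves 1 residual degree of freedom, so that departure from equal effects at both ages takes the place of replicate spread. Of the 9 genes 1 passed an adjusted p of 0.05 with a lower level, against 18.8% of 14935 genes, and 0 with a higher level, against 12.4%. *Bcl2l11* fell, with a log2 difference of -1.16 (SE 0.27, limma adjusted p = 0.0245), and was lower in both csPIMT-/- libraries. The other log2 differences were 1.53 for *Bcl2l1* (SE 0.54, adjusted p = 0.0761), -0.91 for *Bcl2* (SE 0.32, adjusted p = 0.0728), 0.71 for *Bax* (SE 0.24, adjusted p = 0.0703) and 0.68 for *Casp9* (SE 0.26, adjusted p = 0.0946), all without passing. *Mcl1*, *Bak1*, *Bid* and *Bbc3* had adjusted p-values from 0.150 to 0.266. Of the 9 genes 5 had an unadjusted p under 0.05, as did 6832 of all 14935. On the recovered reads edgeR's quasi-likelihood test called the same 1 gene, with adjusted p = 0.0313, among 2508 lower (16.8%) and 1619 higher genes (10.8%). DESeq2 called *Bcl2l11* lower and *Bcl2l1* higher (adjusted p = 0.00715 and 0.00443) among 2994 (20.0%) and 2201 (14.7%). Without a filter on low counts limma also called *Bcl2l1* higher (adjusted p = 0.0456), among 10.8% of 18725 genes. With the GC trend subtracted, or without a mean trend of the variance, limma called 0 genes of any kind, with adjusted p-values for *Bcl2l11* of 0.134 and 0.0783, although 3502 and 5944 genes had an unadjusted p under 0.05.

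The rest of the death machinery was read from lists of 68 further genes, of which 61 entered the fit. By limma 18 fell and 8 rose at an adjusted p under 0.05, 35 did not pass (18.8% of all genes were called lower and 12.4% higher, the shares to read each list count below against), and the median log2 difference was -0.26, beside 0.03 over all genes. With the GC trend subtracted 0 of these calls held. At 2 months 19 of the 61 genes compared were below 0.5 and 7 above 2, beside 23.0% and 16.4% of all genes. At 6 months 19 of 62 were below 0.5 and 6 above 2, beside 25.7% and 16.0%. Over these genes the ratios had medians of 0.680 at 2 months and 0.749 at 6 months that moved to 0.894 and 0.914 when the GC trend was subtracted.

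Among the genes nearest to the Bcl2 family itself, *Bok*, a BAX-like effector, rose. It went from 341 normalized counts in the control to 1206 at 2 months and from 522 to 1641 at 6 months, with a log2 difference of 1.73 (SE 0.26, limma adjusted p = 0.00977) and ratios of 2.10 and 1.81 after the GC trend was subtracted. *Bcl2l13*, the lowest of the 3 Bcl2-like genes with 100 reads, did not pass, with ratios of 1.002 and 1.16. *Bcl2l2* (BCL-W), the only other anti-apoptotic relative with 100 reads, was at 0.652 of the control (95% interval 0.608 to 0.698) in the younger pools and at 1.10 (95% interval 1.04 to 1.15) in the older, but at 0.507 and 0.816 with the GC trend subtracted. Of the 7 further BH3-only and BNIP3 genes 1 fell, *Bnip3l*, and 1 rose, *Bad*, named after its values were seen (log2 difference 0.83, SE 0.22, limma adjusted p = 0.0381). The ratios of *Bad* were 1.78 and 1.71, and 1.14 and 1.09 with the GC trend subtracted. *Bnip3l*, a mitophagy receptor, had a log2 difference of -1.30 (SE 0.26, limma adjusted p = 0.0184), with ratios of 0.315 at 2 months and 0.506 at 6 months that became 0.700 and 1.29 with the GC trend subtracted. *Bmf* had the highest mean log2 ratio of the list, at ratios of 1.14 and 2.76 that became 0.847 and 1.98 with the trend subtracted, and did not pass.

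Downstream of the mitochondrion, 4 of 9 apoptosome and inhibitor of apoptosis genes fell and 1 rose. *Cycs*, which encodes cytochrome c, went from 2221 normalized counts in the control to 312 at 2 months and from 2548 to 542 at 6 months, a log2 difference of -2.54 (SE 0.27, limma adjusted p = 0.00802). Its ratios of 0.138 and 0.207 became 0.336 and 0.574 with the GC trend subtracted. *Htra2*, a mitochondrial protease that counters the inhibitors, rose, with a log2 difference of 1.12 (SE 0.23, limma adjusted p = 0.0181). The ratios of *Htra2*, 1.95 and 2.33, became 1.20 and 1.39 with the GC trend subtracted. All 8 other caspases that could be compared had ratios below 1 at both ages, against 40.7% of 14781 genes, but their median ratios of 0.610 and 0.485 became 1.07 and 0.757 with the GC trend subtracted. Of these 8, 2 fell by limma. *Casp2* was the highest, at ratios of 0.978 and 0.763 that became 1.23 and 0.965 with the GC trend subtracted. Of 6 execution genes 2 fell, with *Rock1* lowest (log2 difference -2.34, SE 0.21, limma adjusted p = 0.00802), and 1 rose, *Endog*, a mitochondrial nuclease (0.84, SE 0.25, adjusted p = 0.047), although its ratios of 2.19 and 1.42 became 1.30 and 0.826 with the GC trend subtracted. Those of *Rock1*, 0.187 and 0.201, became 0.482 and 0.579.

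**Figure D5:**
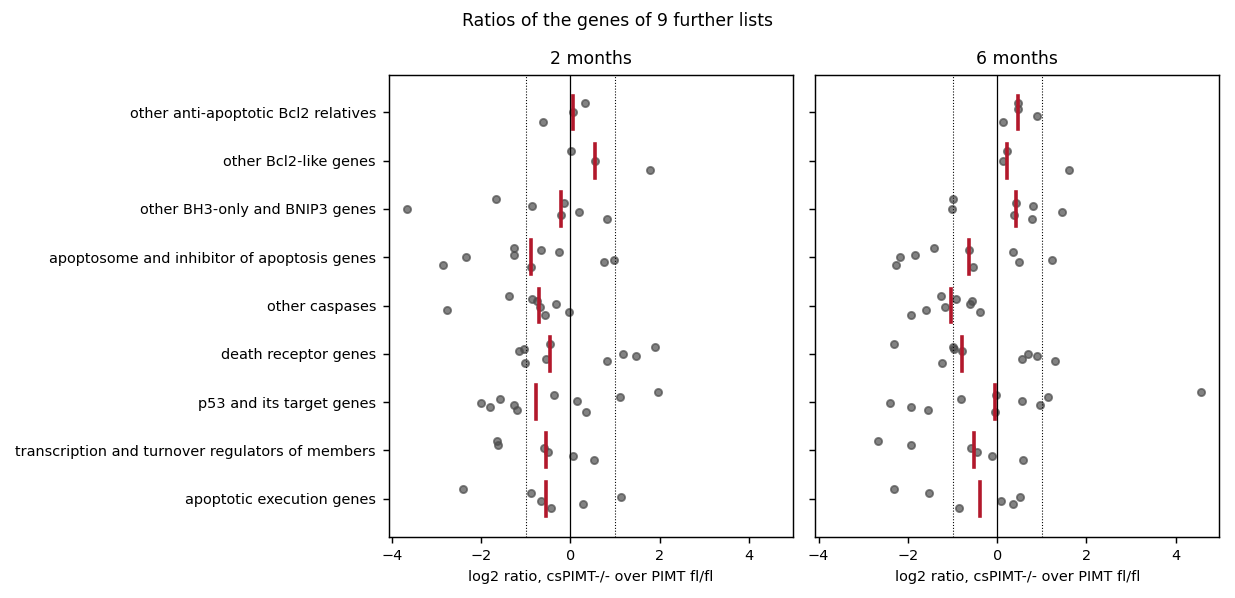
log2 ratio of csPIMT-/- over PIMT fl/fl (horizontal axis) of each gene of the 9 further lists (rows) at 2 months (left) and 6 months (right), 1 point per gene, red bars for list medians and dotted lines at 2-fold. The caspase points all lie below 0 as counted, while their median ratio with the GC trend subtracted is 1.07 at 2 months and 0.757 at 6 months, and the rightmost point at 6 months is *Gdf15*.

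Upstream, 3 of 9 death receptor genes fell and 2 rose. *Fadd*, the adaptor that recruits caspase-8, rose (log2 difference 1.20, SE 0.29, limma adjusted p = 0.0279), and *Tnfsf10* (TRAIL) was lowest, at 0.723 and 0.200, without passing, and at 1.46 and 0.466 with the GC trend subtracted. The ratios of *Fadd*, 2.77 and 1.84, became 2.51 and 1.59 on that scale. Of 10 genes in the p53 list 4 fell and 2 rose. *Gdf15*, a stress hormone induced by p53 and by other pathways, had the highest ratios of the list, going from 459 normalized counts in the control to 1837 at 2 months and from 326 to 7959 at 6 months, and it rose by limma (log2 difference 3.29, SE 0.57, adjusted p = 0.0129). The csPIMT-/- level was 3.92-fold (95% interval 3.55 to 4.34) and 23.8-fold (95% interval 21.4 to 26.4) the control, and 2.37 and 14.0 with the GC trend subtracted. *Ccng1*, also a p53 target, was the lowest, at 0.248 and 0.190 (log2 difference -2.18, SE 0.25, limma adjusted p = 0.0081), and at 0.607 and 0.528 with the GC trend subtracted. Of 6 regulators of the 9 genes 2 fell. *Fbxw7*, part of a ligase that marks MCL1 for degradation, was the lowest, at 0.321 and 0.157 (log2 difference -2.13, SE 0.31, limma adjusted p = 0.00922), and *Foxo3*, a transcription factor of *Bcl2l11* and *Bbc3*, was the highest, at 1.44 and 1.51, without passing. With the GC trend subtracted *Fbxw7* was at 0.451 and 0.230, and *Foxo3* at 1.11 at both ages.

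The genes most like each of the 9 in pattern were found by the distance between centred log2 normalized counts over the 4 libraries, among 12715 genes outside the lists with at least 100 reads in 1 library. *Bcl2l1* had few close matches, with 7 genes within a distance of 0.25, the nearest being *Asphd2* (54.5, 71.5, 38.7 and 254 normalized counts in the 2-month control, 2-month csPIMT-/-, 6-month control and 6-month csPIMT-/- libraries). *Bcl2* had 57 such genes, nearest *Hdac1*, and *Bcl2l11* 231, nearest *Nras*. The other 5 genes with 100 reads had 303 to 717, and *Bid*, with fewer reads, was left out. Nearest to *Mcl1*, *Bax*, *Bak1*, *Bbc3* and *Casp9* were *Sec23a*, *Wdr46*, *Chaf1a*, *A430005L14Rik* and *Srebf2*. With 4 libraries such likeness is a description only. Among the 9 themselves, *Bbc3* and *Casp9* were the closest, at a distance of 0.225, and *Bcl2l1* was 1.43 from *Bax*, its nearest.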

How the data were processed

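Poly(A)-enriched RNA of 4 pools of 5 mouse hearts each was sequenced with Illumina TruSeq libraries, 1 pool per genotype and age. Per the labels and the study's methods, the authors mapped reads by STAR (mm10), took gene counts from HTSeq 0.6.1p1 and deposited a signal per gene, the read count divided by a DESeq2 size factor. Libraries were directional, but the strand setting of the counting is not given in the sources used here.

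Whole reads were recovered from the deposited values by dividing each by the smallest value above 0 of its library, and 100% of values came out whole within 1e-06 reads. Columns were matched to groups by the labels, and 0 columns were left unused. For each ratio, both libraries were scaled by median-of-ratios size factors with a pseudocount of 0.5 on the log2 scale, over genes that reached 10 reads in 1 of them, and a gene was called past 2-fold below 0.5 or above 2. Intervals are exact Clopper-Pearson intervals of the 2 counts, and at this depth all 9 genes but *Bid* had over 300 reads in each library. GC content was that of the longest GENCODE M21 transcript (GRCm38), matched by symbol, and its trend a lowess curve of span 0.3. Genotype was fitted over both ages with limma 3.58.1 in R 4.3.3 on log2(TMM-scaled reads + 1), with a mean trend of the variance and Benjamini-Hochberg adjustment over all genes tested. The fit was on recovered reads because the deposited scale is a division of them. edgeR 4.0.16 (quasi-likelihood) and DESeq2 1.42.0 were alternatives. Functions were tested on simulated data. With 1 pool per group, p-values rest on the departure from equal genotype effects at both ages, with variance shared in part over genes. They do not measure the spread between mice, and that departure may be technical.

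Named genes were the 9 genes, the lowest and highest gene by mean log2 ratio of each further list among those that reached 100 reads in a library, and the gene nearest in pattern to each of the 9. Of these, 1 gene of a further list is not reported here. The 9 genes and the lists were chosen with earlier results of these data known, so nothing is offered as independent support. Promoter windows came from RefSeq (GRCm38.p6), matched by symbol for all 9 genes. Alternatives were other scalings, pseudocounts, filters, control libraries and GC subtraction.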

Additional observations from a re-analysis of the deposited data

Results flagged for a closer look

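For several genes the difference between ages ran in opposite directions in the genotypes, each beyond its own counting interval. With 1 pool per group the difference between the genotypes was not tested. Given here are the 6-month over 2-month ratio in controls, that in csPIMT-/- hearts and the quotient of the latter over the former. *Bcl2l1* had 0.687 and 3.96, a quotient of 5.76, and *Bcl2* had 0.731 and 1.49, a quotient of 2.05. *Bax* had 0.853 and 1.28, a quotient of 1.50, but with the GC trend subtracted 1.04 and 1.47, both above 1. *Bak1* had 0.796 and 1.12, a quotient of 1.40. *Mcl1* went the other way, with 1.09 and 0.938 and a quotient of 0.864.

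Among the further genes, *Gdf15* had 0.679 and 4.21, a quotient of 6.21, and *Bmf* 0.652 and 1.61, a quotient of 2.47. *Bcl2l13* had 0.900 and 1.07, a quotient of 1.18. *Fbxw7* had 1.30 and 0.652, a quotient of 0.501, and *Tnfsf10* 1.56 and 0.443, a quotient of 0.283. *Bcl2l2* was on opposite sides of 1 between genotypes at 2 and 6 months, with csPIMT-/- over control ratios of 0.652 and 1.10 and a quotient of 1.68, but both ratios were below 1 with the GC trend subtracted (0.507 and 0.816). For the other genes given here the opposite directions were the same with the trend subtracted.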

How the results depend on the processing

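TMM scaling, the deposited scale and a pseudocount of 5 left all 9 ratios at each age within their counting intervals. The choice of control moved more of them. With the control of the other age 3 of the 9 ratios at 2 months and 2 at 6 months stayed within their intervals. With both controls summed 7 and 5 did, and in either setting 0 ratios crossed 1. With the GC trend subtracted, 0 of the 9 genes were below 0.5 at 2 months and 0 at 6 months, genes below 0.5 numbered 1598 of 13748 at 2 months and 1822 of 13787 at 6 months, and 2 of the 9 had a ratio above 1 at both ages. That last setting was chosen after seeing the data. The 1 gene above 2 at 2 months, *Bid*, was not above it with the control of the other age (0 genes), with both controls summed (0) or when the whole interval had to pass (0). At 6 months the whole interval left 0 below 0.5, and 2 genes were above 2 on the deposited scale and with the control of the other age. Over all genes, 1607 at 2 months and 1591 at 6 months were above 2 with the whole interval, and 1618 at 2 months with at least 100 reads. In limma, 0 genes passed lower and 0 higher without the mean trend or with the GC trend subtracted, and the latter reversed the log2 difference of *Bax* (-0.072), *Bak1* (-0.24) and *Bbc3* (-0.29). With no filter on low counts, and in DESeq2, 1 of the 9, *Bcl2l1*, passed higher. The causes were not tested. Leaving out any 1 library left 6 genes above and 3 below the other genotype. That number was fixed in advance, because all 9 genes already lay apart between the genotypes with every library included. The same step left no residual degrees of freedom in the limma fit, so it gave no test there. No paired analysis was possible because the labels carry no replicate numbers, beyond the age term of the limma fit, which sets each csPIMT-/- pool against the control of its age. Among the 9 genes depth limited *Bid* most.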
